A study of Mus musculus with 8 samples.

Results

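The T cell receptor alpha variable (Trav) segments were taken as the genes whose symbol begins with Trav, which gave 106 of the 37979 genes in the expression table. RNA was sequenced from pericytes (PDGFRβ+tdTomato- cells) and smooth muscle cells (SMCs, PDGFRβ+tdTomato+ cells) sorted from the hindlimb muscles of Ai14+/-;SM22α-Cre+ mice of both sexes aged 3 to 4 months, with 4 libraries per group. In all of these mice Cre recombinase under the SM22α promoter switches on the red reporter tdTomato for good, so the label marks any cell that has used that promoter. Both groups came from the same gate. By the study's methods it left out cells with the leukocyte marker CD45, the endothelial marker CD31 and much of the dead-cell dye DAPI, although another passage of the study lists the sorted cells as CD31+. Each library pooled several sorts to about 60000 cells. Levels are FPKM, fragments scaled to the length of the transcript and to the mapped total of the library. The p values below measure the spread between these pooled libraries.

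T cells build their antigen receptor by cutting and joining DNA. At the alpha locus 1 of many V segments is joined to 1 of many J segments, and the joined exon is spliced to the constant exons of Trac, so that a mature αβ T cell transcribes the V segment it has joined. A clone of T cells therefore uses few V segments, and a mixed population uses many. Some V segments, whose symbols carry dv, can be joined into the delta chain as well. Trav11 (joined to Traj18) and Trav1 (joined to Traj33) give the invariant alpha chains of natural killer T (NKT) cells and of mucosal-associated invariant T (MAIT) cells. In the reference strain a stretch of the locus is present in several copies, and the segments of the extra copies carry the letter d or n in their symbols. Neither pericytes nor SMCs are known to join these segments.

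The 106 segments lie on the plus strand of chromosome 14 between positions 53047603 and 54496426 (NCBI Build 37) and fall into 21 subgroups, the number after Trav. Of these, 34 carry the letter d, 26 the letter n and 46 neither. The GENCODE vM1 models give 102 of them as V genes, 2 as pseudogenes and 2 as protein-coding genes, with 2 exons (leader and V exon) in 94 and 1 exon in 12. The V exon sequences of Trav12-2 and its d and n copies, the coding part of the second exon, are shown first because Trav12-2 had the most fragments of all segments while both copies were listed at 0. They were read from the Build 37 genome along the GENCODE models, 5′ to 3′. Capitals in Trav12-2 (chr14:54236298-54236587) and Trav12d-2 (chr14:53535813-53536098) mark the bases that differ between the pair or are absent from the other, 15 differences in the alignment. Trav12n-2 (chr14:53846787-53847072) has 0 differences from Trav12d-2 over 286 bases and is in lower case throughout.
Trav12-2: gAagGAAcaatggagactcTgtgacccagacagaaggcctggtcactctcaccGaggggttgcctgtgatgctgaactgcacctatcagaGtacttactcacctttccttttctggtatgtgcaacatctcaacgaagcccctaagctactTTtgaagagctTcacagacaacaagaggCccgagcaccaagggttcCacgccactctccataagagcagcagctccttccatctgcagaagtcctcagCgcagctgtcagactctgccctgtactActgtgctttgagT
Trav12d-2: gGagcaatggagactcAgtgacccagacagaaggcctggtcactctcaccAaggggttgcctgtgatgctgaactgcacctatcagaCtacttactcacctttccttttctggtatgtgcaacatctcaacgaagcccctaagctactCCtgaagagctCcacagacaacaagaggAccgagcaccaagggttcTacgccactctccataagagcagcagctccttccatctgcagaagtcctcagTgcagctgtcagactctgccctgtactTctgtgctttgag
Trav12n-2: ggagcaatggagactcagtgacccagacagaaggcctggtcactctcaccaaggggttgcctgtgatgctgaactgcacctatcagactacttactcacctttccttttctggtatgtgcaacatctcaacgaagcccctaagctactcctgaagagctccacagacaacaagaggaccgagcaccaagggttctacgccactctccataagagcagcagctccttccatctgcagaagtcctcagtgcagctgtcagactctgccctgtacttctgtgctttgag

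Trav11 (chr14:54139244-54139534) and Trav11d (chr14:53444298-53444587) are shown because Trav11 is the NKT cell segment and their V exons cannot be told apart by sequence. They share all 290 bases of Trav11d, and the capital marks the 1 base by which the Trav11 model is longer. Trav1 (chr14:53048269-53048549), the MAIT cell segment and the first of the locus, and Trav14n-3 (chr14:53989971-53990250), the segment with the highest mean FPKM in pericytes, whose model has only 1 exon of 280 bases, are in lower case.
Trav11: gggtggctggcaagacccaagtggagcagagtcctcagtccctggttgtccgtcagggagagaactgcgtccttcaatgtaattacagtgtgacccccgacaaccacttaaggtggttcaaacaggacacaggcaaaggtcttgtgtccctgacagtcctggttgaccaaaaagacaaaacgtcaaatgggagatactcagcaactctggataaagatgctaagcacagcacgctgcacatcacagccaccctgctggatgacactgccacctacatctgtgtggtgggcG
Trav11d: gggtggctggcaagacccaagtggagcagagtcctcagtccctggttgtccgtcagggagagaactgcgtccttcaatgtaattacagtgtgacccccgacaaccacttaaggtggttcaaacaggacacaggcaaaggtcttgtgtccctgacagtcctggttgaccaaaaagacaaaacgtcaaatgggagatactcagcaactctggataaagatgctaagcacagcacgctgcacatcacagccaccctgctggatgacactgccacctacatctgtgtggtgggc
Trav1: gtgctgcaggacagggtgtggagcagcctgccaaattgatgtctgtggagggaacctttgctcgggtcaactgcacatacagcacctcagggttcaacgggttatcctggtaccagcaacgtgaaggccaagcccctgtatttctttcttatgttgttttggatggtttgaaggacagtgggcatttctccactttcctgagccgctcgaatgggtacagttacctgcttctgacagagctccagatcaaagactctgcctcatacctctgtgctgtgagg
Trav14n-3: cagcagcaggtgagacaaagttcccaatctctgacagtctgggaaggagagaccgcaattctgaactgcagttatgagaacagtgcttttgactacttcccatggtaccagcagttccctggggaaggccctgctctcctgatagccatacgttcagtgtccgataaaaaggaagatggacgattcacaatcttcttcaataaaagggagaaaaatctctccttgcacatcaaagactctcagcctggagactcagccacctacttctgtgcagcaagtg

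Each V segment that can be joined is followed by a recombination signal, a conserved heptamer and a nonamer set apart by a spacer, which the RAG recombinase recognizes. The heptamer letters CACAGTG, searched on the segments' own strand, lay within 12 bases after the last exon in 79 of the 106 segments (74.5%), and 0.106% of all windows of 12 bases across the locus hold them. They followed 59 of the 76 segments above 0 in some library and 20 of the 30 listed at 0 in every library. The stretches after Trav12-2 (chr14:54236590-54236628), Trav1 (chr14:53048552-53048590) and Trav20 (chr14:54483337-54483375) are shown as examples of a segment at a high level, an invariant chain segment and a segment at 0, with the heptamer and the last 9 bases in capitals.
Trav12-2 signal: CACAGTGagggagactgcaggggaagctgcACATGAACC
Trav1 signal: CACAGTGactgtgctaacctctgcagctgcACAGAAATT
Trav20 signal: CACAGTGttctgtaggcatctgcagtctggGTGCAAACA

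The labels were checked against marker genes. T cell markers (Cd3e, Cd3d, Cd3g, Cd247, Lck, Cd4 and Cd8a) summed to between 1318 and 2013 FPKM in the pericyte libraries and between 22.6 and 54.7 FPKM in the SMC libraries, and B cell markers to between 761 and 1966 FPKM and between 8.84 and 30.1 FPKM. Ptprc, the gene of CD45, which the gate excludes, had 80.6 to 230.3 FPKM in pericytes and 4.34 to 11.9 FPKM in SMCs. The pericyte markers Pdgfrb, Rgs5, Kcnj8, Abcc9 and Cspg4 summed to 22.2 to 62.1 FPKM in the libraries labelled pericytes and 55.9 to 235.6 FPKM in those labelled SMCs. Of the 5, 0 were called higher in pericytes, where 10.6% of all genes tested were, so this count says little. Pdgfrb, Kcnj8, Abcc9 and Cspg4 were called in neither direction (limma q = 0.0973 to 0.409). Rgs5 was higher in SMCs (10.01 to 18.3 against 23.9 to 58.7 FPKM, log2 difference -1.30, SE 0.31, limma q = 0.0240). SMC markers did not separate the groups (530.4 to 1844 against 1691 to 5309 FPKM). Endothelial markers summed to 31.5 to 77.2 FPKM in pericytes and 145.3 to 485.7 FPKM in SMCs, and Pecam1 among them, the gene of CD31, had 24.96 to 59.7 and 101.8 to 301.1 FPKM. In the same order, macrophage markers summed to 62.8 to 142.2 and 85.8 to 173.7 FPKM, and muscle fiber markers to 11.9 to 17.3 and 12.2 to 19.9 FPKM. The macrophage marker Emr1 was higher in SMCs (log2 difference -0.92, SE 0.26, limma q = 0.0437), and Csf1r and Cd68 were called in neither direction. Fibroblast markers summed to 697.1 to 1456 and 2442 to 3052 FPKM. Lum (means 97.9 and 1613 FPKM), Pdgfra (2.602 and 40.05 FPKM) and Col1a1 (95.5 and 1071 FPKM) were SMC-enriched. Dcn had 509.2 to 1165 FPKM in pericytes and was listed at 0 in all SMC libraries, which may be a failed estimate, so no direction is read from it. The pericyte libraries thus hold the Trav segments together with T cell genes, B cell genes and Ptprc, and in bulk RNA a change in the number of cells of a type cannot be told apart from a change in RNA per cell.

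Between 70 and 72 Trav segments were above 0 in each pericyte library (70, 72, 72 and 71 in replicates 1 to 4), and 65 or 66 reached 1 FPKM. In the SMC libraries 24, 20, 15 and 12 segments were above 0, and 4, 5, 1 and 2 reached 1 FPKM. The groups did not overlap. Across the 4 pericyte libraries 76 segments were above 0 at least once and 68 were above 0 in all. Across the SMC libraries 42 were above 0 at least once, 22 of them in a single library, and Trav3-3 alone was above 0 in all 4. Every one of the 42 was also above 0 in pericytes. A total of 30 segments were listed at 0 in all 8 libraries. A value listed at 0 in this table may be a failed estimate, since Ubb, a ubiquitin gene and 1 of 25 genes used by every cell that were looked up, was also listed at 0 in at least 1 library.

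**Figure D1:**
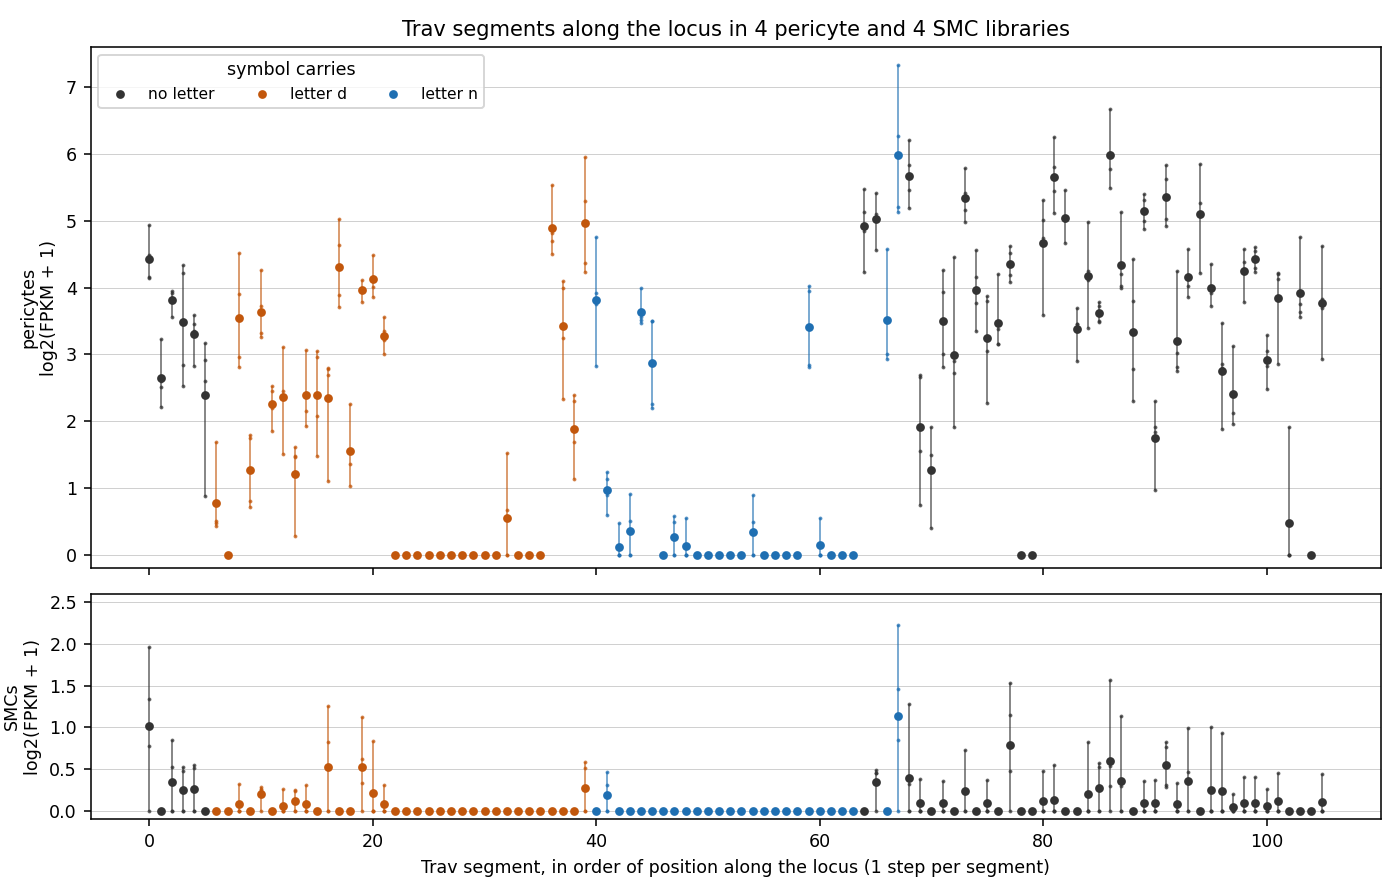
log2(FPKM + 1) of the 106 Trav segments in order along the locus, in pericytes (top) and SMCs (bottom). Large points are means of 4 libraries, small points single libraries and lines the range, and colors give the letter in the symbol. The middle of the locus holds the run of segments at 0, and the pericyte panel reaches above the SMC panel for every segment above 0.

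Summed over all segments, Trav FPKM was 1094, 1613, 1048 and 778.2 in pericyte replicates 1 to 4 and 14.5, 15.3, 6.71 and 8.75 in SMC replicates 1 to 4. This gave a pericyte mean of 1133 ± 349 FPKM and an SMC mean of 11.3 ± 4.24 FPKM (both SD, n = 4), with a ratio of 100.2. The ratio of Trac, the constant region of the alpha chain, was 63.2, and those of Cd3e and Trbc2 were 93.2 and 90.7. Within pericytes the Trav sum kept close to Trac, at 0.988, 0.958, 1.04 and 0.965 times the Trac value, while it ranged from 5.41 to 9.84 times the Cd3e value. In SMCs it was 0.746, 0.830, 0.469 and 0.425 times Trac, below the pericyte range in every library.

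Nearly all low FPKM values are multiples of the value of 1 fragment, which depends on the length of the gene model, so fragments could be estimated for 104 of the 106 segments (all but Trav14-3 and Trav7n-6). At the length of the Trav10 model (343 bases) 1 fragment was worth 0.398 to 0.479 FPKM in pericytes and 0.377 to 0.440 FPKM in SMCs. The exception among the segments was the shorter of the overlapping models named Trav9n-1 (ENSMUSG00000079237), listed at 0.000103 FPKM in pericyte replicate 2, which is under 1 fragment and was taken as 0 fragments, although it counts among the 72 segments above 0 there. The segments held 3009, 4040, 3124 and 2442 fragments in pericyte replicates 1 to 4 and 43, 49, 21 and 27 in the SMC replicates. Of the 70 SMC values above 0 with an estimate (all but that of Trav14-3, 0.322 FPKM in SMC replicate 1), 43 were 1 fragment, 9 were 2 fragments and 18 were 3 or more, with a highest of 9. The SMC values are therefore counts of a few fragments, and single segments cannot be compared with each other within SMCs at this depth.

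Use was spread over many segments in pericytes. The highest segment held 6.95%, 9.96%, 6.10% and 5.63% of the Trav FPKM in replicates 1 to 4, the highest 10 segments held 40.8%, 45.1%, 41.5% and 39.8%, and 13 to 15 segments were enough to make up 50% of it. The effective number of segments, the exponential of the Shannon entropy of the shares, which equals the number of segments that would give that entropy if all were used equally, was 47.4, 44.0, 47.8 and 49.0, or 47.1 ± 2.15 (SD, n = 4). Divided on the log scale by the number above 0 (Pielou evenness, 1 for equal use), this was 0.885 to 0.913. With fragments in place of FPKM the effective number was 44.9 ± 1.16 (SD, n = 4), and with the d and n copies of a segment summed it was 31.0 ± 1.38 (SD, n = 4) over 49 base names. In SMCs the effective number was 20.003, 12.2, 12.1 and 8.66, from the few fragments given above. At 21 fragments, the total of the smallest library, the number of different segments expected by formula was 16.0 to 16.4 in the pericyte libraries and 14.9, 12.1, 15 and 10.4 in SMC replicates 1 to 4, a much smaller gap. Amplified fragments are not independent molecules, so no difference in diversity between the groups is read from these values.

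**Figure D2:**
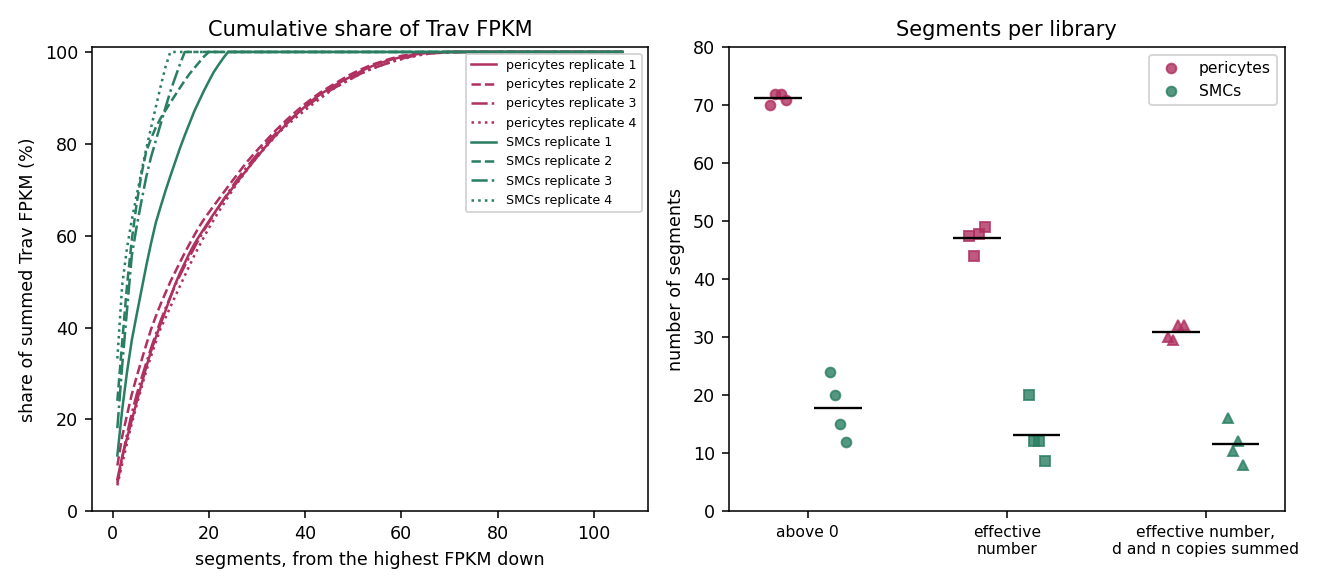
Left, cumulative share of the summed Trav FPKM (%) against segments ordered from the highest down, 1 line per library. Right, segments above 0, effective number, and effective number with d and n copies summed, with 1 point per library and a bar at the group mean. The 4 pericyte curves nearly coincide, and the SMC curves rise to 100% within 12 to 24 segments.

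The order of the segments was shared by the pericyte libraries. Spearman's rho over all 106 segments was 0.940 to 0.961 over the 6 pairs of pericyte libraries (mean 0.950), and over the segments above 0 in both libraries of a pair, 68 to 70 of them, it was 0.832 to 0.8999 (mean 0.864). Each pair shared 7 to 9 of its 10 highest segments. Trav12-2, Trav13-1, Trav14n-3, Trav7-2 and Trav7-4 were among the 10 highest in all 4 libraries, and 13 segments were among them in any. Between SMC libraries rho was 0.165 to 0.347, and between libraries of different groups it was 0.249 to 0.526 over 16 pairs. These correlations are across segments of 1 locus that share gene lengths, near-identical copies and the segments at 0, and are given as a description.

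**Figure D3:**
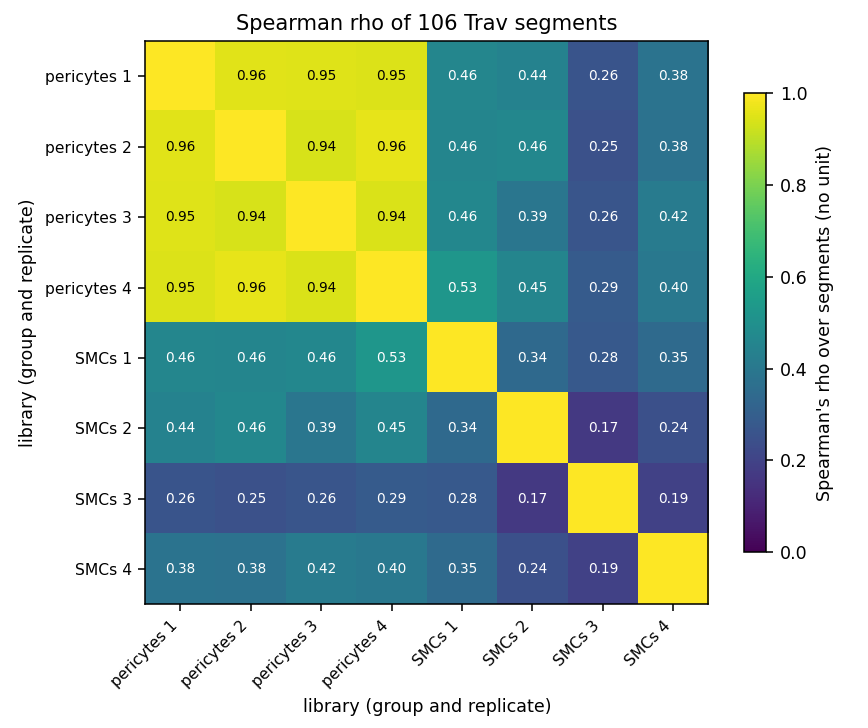
Spearman's rho (color and printed value) of FPKM over 106 Trav segments for each pair of the 8 libraries. The pericyte block reads 0.94 to 0.96, and every pair with an SMC library lies at 0.53 or below.

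Of the 10 segments with the highest mean in pericytes, Trav14n-3 led by mean FPKM, with 76.0, 160.6, 34.2 and 36.0 FPKM in replicates 1 to 4. This lead rests on replicate 2, without which its mean falls from 76.7 to 48.7 FPKM, under the 53.97 FPKM of Trav12-2, and Trav12-2 was the highest segment in replicates 3 and 4. It was 3.69 FPKM or lower in SMCs (1.76, 3.69, 0.797 and 0), and the groups did not overlap. Its spread was wide (coefficient of variation 0.772), with replicate 2 highest, and its difference of 4.85 on the log2(FPKM + 1) scale had an SE of 0.64 and a q of 0.00178 by limma's moderated test. By fragments it ranked 8, with 87, 170, 41 and 46 fragments, since its short model makes each fragment worth more FPKM.

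Trav12-2 ranked 2 by FPKM and 1 by fragments. It had 54.1, 101.3, 64.0 and 43.8 FPKM in pericytes (217, 369, 269 and 192 fragments) and 0, 1.95, 0.232 and 0.455 FPKM in SMCs (0, 9, 1 and 2 fragments). Every pericyte library was above every SMC library, with a log2 difference of 5.39 (SE 0.39, limma q = 0.000123).

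Trav13-1 had 42.7, 75.9, 55.3 and 33.6 FPKM in pericytes and was above 0 in a single SMC library, at 0.459 FPKM. Its log2 difference of 5.52 was the largest of the segments on the log2(FPKM + 1) scale (SE 0.26, limma q = 2.49e-05). Trav7-2 had 43.2, 72.9, 56.4 and 35.5 FPKM in pericytes and 1.43, 0.248, 0 and 0 FPKM in SMCs, a log2 difference of 5.28 (SE 0.34, limma q = 8.43e-05). Both show the same order of the pericyte libraries as Trav12-2, with replicate 2 highest and replicate 4 lowest. Trav7-4 had 41.9, 54.2, 35.0 and 30.8 FPKM in pericytes and at most 0.653 FPKM in SMCs, a log2 difference of 5.10 (SE 0.23, limma q = 1.87e-05).

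Trav3-3, the segment above 0 in all libraries, had 31.5, 56.2, 48.2 and 29.5 FPKM in pericytes and 0.773, 0.224, 0.240 and 0.706 FPKM in SMCs, a log2 difference of 4.80 (SE 0.25, limma q = 3.2e-05). Trav5-4 and Trav14-1 were listed at 0 in every SMC library. Trav5-4 had 32.8, 56.6, 37.6 and 17.7 FPKM in pericytes, and Trav14-1 had 31.3, 43.1, 31.7 and 24.5 FPKM. Trav14-2 was steady, at 41.4, 38.8, 31.0 and 28.5 FPKM, with 0.287 FPKM in SMC replicate 4 alone. Trav14d-3-dv8, which can be joined into either chain, varied more, at 38.3, 61.4, 19.7 and 17.8 FPKM.

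**Figure D4:**
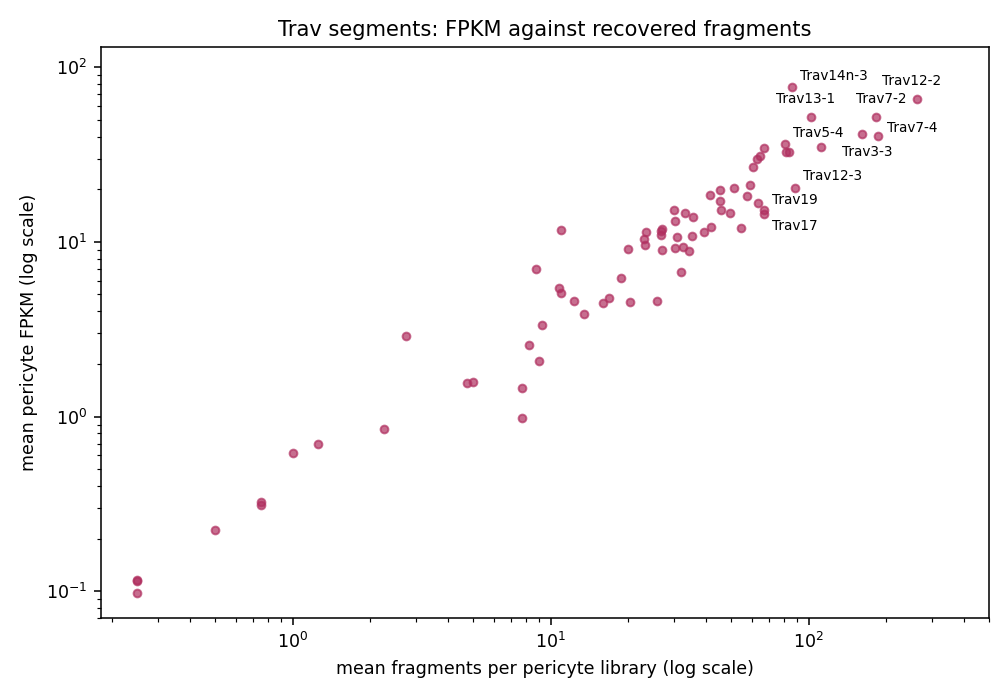
Mean FPKM against mean estimated fragments per pericyte library for the Trav segments with fragments, both axes on a log scale. Trav14n-3 is highest by FPKM, and Trav12-2 lies farthest to the right, with a mean of 261.8 fragments.

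Among the 66 segments with a pericyte mean of at least 1 FPKM, the coefficient of variation over the 4 libraries had a median of 0.446, beside 0.362 over all 13102 genes with such a mean. The medians are not matched for fragments or gene length, so no difference is read from them. The steadiest were Trav13d-1 (14.6, 16.3, 14.7 and 12.8 FPKM), Trav4-3 (12.7, 12.3, 10.3 and 10.2 FPKM), Trav3-1, Trav14-3 and Trav14-2. The most variable were Trav6-4, which was highest in replicate 3 (6.43, 5.56, 21.0 and 2.77 FPKM), Trav14n-3, Trav4-2 (5.34, 5.46, 0.679 and 1.95 FPKM), Trav13-2 and Trav13n-4. Trav13-2 was also highest in replicate 3, at 5.88, 12.9, 20.6 and 3.95 FPKM, and Trav13n-4 in replicate 2, at 10.6, 22.8, 7.06 and 6.59 FPKM. Of the 68 segments above 0 in every pericyte library, 40 were highest in replicate 2, 12 in replicate 1, 12 in replicate 3 and 4 in replicate 4. The FPKM of all genes in replicate 2 sum to 1190435, against 690247 to 782014 in the other pericyte libraries, and the Trav share of that sum was 0.158%, 0.135%, 0.146% and 0.0995% in replicates 1 to 4. For genes above 0 in every library, the median ratio to their geometric mean was 1.015, 1.035, 1.008 and 0.996 in these replicates. The typical gene was thus little raised in replicate 2, so its Trav share depends on the genes that make up the larger sum.

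By limma's moderated test over 27414 genes above 0 in at least 1 library, 67 Trav segments were higher in pericytes at a q below 0.05, where 10.6% of all genes tested were, and 0 were higher in SMCs, where 11.2% of all genes were. At an unadjusted p under 0.05, 0 were higher in SMCs as well. In 58 segments the log2 difference was also above 2 (pericyte-enriched), against 3.24% of all genes tested. A segment above 0 only in pericytes enters the test through those libraries, so the 76 segments tested are not a free sample of the 106. The median log2 difference of the 76 was 3.41, beside 0.02 over all genes tested. Every pericyte library was above every SMC library in 67 segments, against 12.1% of all genes tested. Of the marker genes, 6 of 7 T cell genes, 5 of 5 B cell genes and Ptprc were also higher in pericytes at a q below 0.05. Among the macrophage genes 0 of 3 were. Their part in the result was not tested.

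The 5 smallest differences among the 58 were Trav8d-1 (2.61, 4.45, 3.59 and 4.76 FPKM in pericytes, 0 in every SMC library), Trav9d-1 (7.61, 4.44, 4.27 and 1.85 FPKM), Trav10d, Trav13-3 and Trav6-2. The first of them had a log2 difference of 2.26 (SE 0.15, limma q = 7.97e-05). A further 9 segments had a q below 0.05 with a smaller difference. They were Trav6d-4, Trav6d-5, Trav11d, Trav12d-1, Trav13d-4, Trav4-2, Trav6-3, Trav15-2-dv6-2 and the longer of the overlapping models named Trav9n-1 (ENSMUSG00000092251). Several of these calls did not hold in every fit. Trav6d-5 (log2 difference 1.08) lost its call with quantile scaling (1.05), with scaling to a common sum (1.26), when all listed genes were tested, and without each library in turn other than pericyte replicate 2 (0.95 to 1.13). Trav4-2 (1.82) lost it when all listed genes were tested and without SMC replicate 1, 3 or 4 or pericyte replicate 1 (1.57 to 1.79). Trav6-3 lost it without SMC replicate 2, 3 or 4 or pericyte replicate 3 (1.199 to 1.271). The longer Trav9n-1 model (0.77) lost it with the replicate number as a block and without SMC replicate 4 (0.71). The 9 segments above 0 that did not pass were Trav4d-2, Trav9d-4, Trav6n-5, Trav14n-1, Trav15n-1, Trav12n-3, Trav4n-4, Trav18 and the shorter Trav9n-1 model (ENSMUSG00000079237). Their highest values were 2.77 FPKM for Trav18 in pericyte replicate 2 and 2.22 FPKM for Trav4d-2 in pericyte replicate 3, and all 9 were listed at 0 in SMCs. Trav4d-2 passed with a pseudocount of 0.1 (log2 difference 2.85) and without pericyte replicate 3 (0.47).

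Trav1, the MAIT cell segment, had 21.4, 29.6, 16.6 and 16.9 FPKM in pericytes (60, 76, 49 and 52 fragments) and 0.713, 1.54, 0 and 2.91 FPKM in SMCs (2, 5, 0 and 9 fragments). Its share of the Trav FPKM ranged from 0 to 33.3% over the SMC libraries, on 0 to 9 fragments. Over the pericyte libraries the share was 1.59% to 2.17%. The log2 difference was 3.41 (SE 0.42, limma q = 0.00129), and the groups did not overlap. Its sequence has no near copy, with 120 base differences from the nearest other segment.

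Trav11 was listed at 0 in all 8 libraries. Trav11d, with the same V exon sequence, had 1.15, 5.47, 5.87 and 5.95 FPKM in pericytes (3, 13, 16 and 17 fragments) and 0.771, 0, 0 and 1.39 FPKM in SMCs (2, 0, 0 and 4 fragments). Pericyte replicate 1 lay below SMC replicate 4, so the groups overlapped. The log2 difference was 1.82 (SE 0.47, limma q = 0.0317). This call was lost with the replicate number as a block and when all listed genes were tested. It was also lost without each library in turn other than pericyte replicate 1 and SMC replicate 4 (1.65 to 1.92). Zbtb16, the transcription factor that directs NKT and MAIT cell development, had 1.38, 1.54, 0.386 and 1.38 FPKM in pericytes and 1.58, 1.74, 0.326 and 0.779 FPKM in SMCs and did not differ beyond the spread (log2 difference 0.06, SE 0.29, limma q = 0.912). Its direction turned with scaling to a common sum.

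Of the 10 segments whose symbols carry dv, 8 were pericyte-enriched, beside 58 of all 106 segments and 3.24% of all genes tested. Of the other two, Trav15-2-dv6-2 passed the test with a smaller difference, and Trav15d-2-dv6d-2 was listed at 0. After Trav14d-3-dv8 the highest were Trav13-4-dv7 (17.9, 22.8, 19.8 and 12.8 FPKM), Trav4-4-dv10 (17.2, 23.0, 13.5 and 15.3 FPKM), Trav6-7-dv9 (14.1, 19.5, 12.2 and 15.001 FPKM) and Trav21-dv12 (11.9, 23.6, 13.2 and 6.64 FPKM). Trav16d-dv11 ranged from 4.03 to 16.2 FPKM and was listed at 0 in SMCs. Trav15-1-dv6-1 had 6.44 to 11.9 FPKM and was also listed at 0 in SMCs, and Trav15d-1-dv6d-1 had 7.01 to 10.9 FPKM and 0.241 FPKM in 1 SMC library.

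By subgroup, Trav14 held the largest share of pericyte Trav FPKM, 18.6% ± 2.91 (SD, n = 4), followed by Trav7 with 14.9% ± 0.587, Trav13 with 10.2% ± 1.25 and Trav12 with 10.1% ± 0.631. The shares of Trav13 and Trav12 do not differ beyond their spread. Trav14 was ahead of Trav7 in 3 of the 4 libraries but not in replicate 3 (14.96% against 15.1%). By fragments the order of the pair turned, with a mean of 412 per library over 8 Trav14 members (without Trav14-3) and 605 over 8 Trav7 members (without Trav7n-6). The share of Trav7 was steady at 14.04% to 15.4%, and that of Trav14 ranged from 14.96% to 21.6%. Trav6, with 15 members the subgroup of most segments, held 5.93% ± 0.594. Trav20 was the subgroup listed at 0, and Trav18 was above 0 in pericyte replicate 2 alone. In SMCs, where shares rest on 21 to 49 fragments, Trav14 (3.28% to 26.9%) and Trav1 (0 to 33.3%) ranged widely.

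Most segments listed at 0 had a sequence twin. In 26 segments, 13 pairs of a d and an n copy, the exonic sequence was identical to that of the twin over the shorter model, and 24 of these were listed at 0 in all libraries. The exceptions were Trav12n-3, with 2 and 1 fragments in pericyte replicates 1 and 3, and Trav4n-4, with 1 fragment in pericyte replicate 3. Of the 10 segments with 1 to 2 base differences 3 were at 0, of the 34 with 3 to 9 differences 2, of the 23 with 10 to 30 differences 0, and of the 13 with more than 30 differences 1, which was Trav20 with 103. Segments without a letter held 71.2% of the pericyte mean, d segments 16.9% and n segments 11.9%. The n segment with the highest mean was Trav14n-3, at 76.7 FPKM, or 48.7 FPKM without pericyte replicate 2.

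Whether a read could be placed was looked at by windows of 50 bases found once in the locus. No such window exists in 40 segments, and 28 of them were listed at 0. The other 12 include Trav7-2, Trav7d-5 (mean 20.3 FPKM) and Trav14d-1 (mean 16.7 FPKM), so a segment without a unique window was not always at 0. Trav7-2 and Trav7d-5 differ by 38 and 46 bases from the nearest other listed segment. Their repeated windows may therefore match stretches of the locus outside the listed segments, which the base differences above do not count. Pairs with 1 or 2 base differences were of either kind. Trav6d-6 had a mean of 4.77 FPKM and Trav6-6 was at 0, although their V exons share 295 bases, while both Trav7d-4 (mean 12.02 FPKM) and Trav7-4 (mean 40.5 FPKM) held values, as did Trav9d-1 (mean 4.54 FPKM) and Trav9-1 (mean 9.41 FPKM). How the authors' counting shared reads among copies is not given in the sources used here, and its part in these zeros was not tested. The values of near-identical copies are uncertain for this reason.

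**Figure D5:**
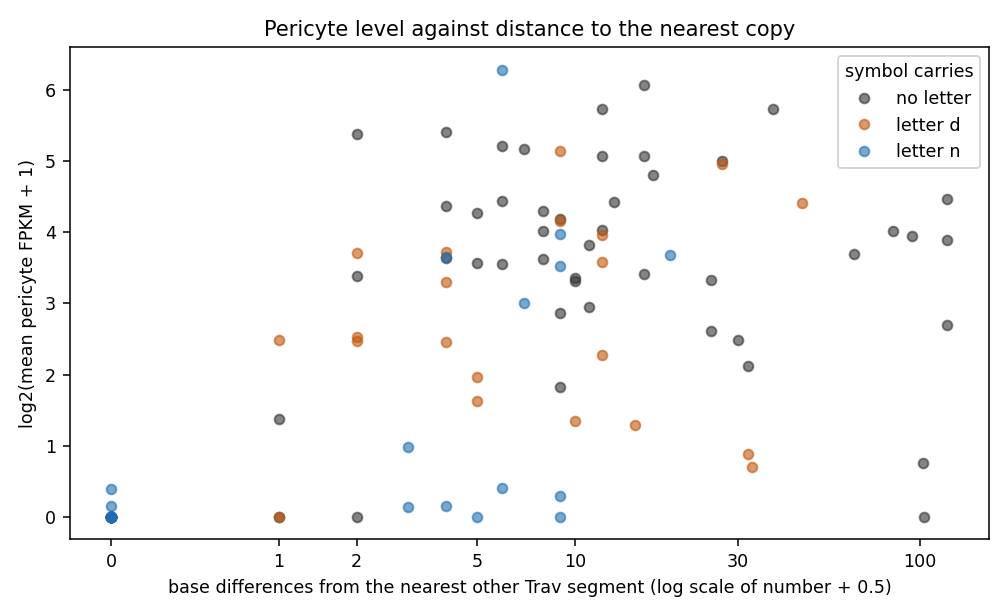
log2(mean pericyte FPKM + 1) against the number of base differences from the nearest other Trav segment (log scale of the number plus 0.5), 1 point per segment, colored by the letter in the symbol. The 26 points at 0 differences lie at or close to 0, and from 10 differences on 1 segment, Trav20, is at 0.

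By mean FPKM the 5 highest segments in SMCs were Trav14n-3 (1.56 FPKM), Trav1 (1.29 FPKM), Trav10, Trav12-2 and Trav11d, but the order changes by fragments summed over the 4 libraries, which were 16 for Trav1, 12 for Trav12-2, 9 for Trav10, 8 for both Trav14n-3 and Trav3-3, 7 for both Trav13d-1 and Trav12-3 and 6 for both Trav11d and Trav7-2. At these numbers no order among them can be read. Trav10 had 0, 1.88, 1.21 and 0.397 FPKM there and 23.7, 22.0, 17.2 and 15.9 FPKM in pericytes, a log2 difference of 3.57 (SE 0.33, limma q = 0.000397). Of the 140 SMC fragments, 50 (35.7%) fell on the 10 segments with the most pericyte fragments, which held 42.5% of 12615 fragments in pericytes. The share ranged from 19.0% to 46.9% over the SMC libraries and from 40.1% to 43.6% over the pericyte libraries.

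The other genes of the receptor pathway were taken as a list of 26, of which 25 were in the table and 24 were tested. In pericytes 19 were enriched, against 3.24% of all genes tested, and 1 more (Rag1) passed with a smaller difference (10.6% of all genes were higher in pericytes at a q below 0.05). None, 0 of the 24, was higher in SMCs, where 11.2% of all genes were. The call of Rag1 (log2 difference 0.36, limma q = 0.0272) was lost with scaling to a common sum (0.41) and without SMC replicate 2, 3 or 4 or pericyte replicate 4 (0.34 to 0.36). The median log2 difference of the list was 4.70, beside 0.02 over all genes tested. The CD3 chains, which carry the receptor's signal, ranged from a mean of 134 FPKM (Cd247) to 464 FPKM (Cd3g) in pericytes and from 1.59 FPKM (Cd3e) to 7.49 FPKM (Cd3g) in SMCs. Trac had 1107, 1683, 1004 and 806.6 FPKM in pericytes and 19.4, 18.5, 14.3 and 20.6 FPKM in SMCs, a log2 difference of 5.87 (SE 0.23, limma q = 1.28e-05). The beta constant genes followed the same pattern, with means of 524 FPKM (Trbc1) and 1228 FPKM (Trbc2) in pericytes, although these near-identical genes may share reads. All 59 Traj segments, short exons to which the V segments are joined, were listed at 0 in every library. The values of Trdc were not analysed here.

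The coreceptor genes Cd8a and Cd8b1 were enriched in pericytes, with 54.5 to 68.6 and 189.8 to 367.7 FPKM against at most 1.82 and 2.61 FPKM in SMCs. Cd4, the other coreceptor, which macrophages also transcribe, had 26.3, 11.2, 40.8 and 43.5 FPKM in pericytes and 0.634, 0.914, 5.09 and 20.2 FPKM in SMCs. Its groups overlapped (log2 difference 2.65, SE 0.88, limma q = 0.0747), and it passed the test without SMC replicate 4 (3.39) and when only genes at 1 FPKM in at least 4 libraries were tested. The signalling genes Lck, Zap70, Lat and Lcp2 were all enriched, from a mean of 46.4 FPKM for Lcp2 to 433 FPKM for Lck in pericytes.

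Of the genes of V(D)J recombination, which is complete in mature T cells, Rag1 was at or below 0.578 FPKM and Rag2 at or below 1.66 FPKM in every library, and Ptcra, the alpha chain stand-in of thymocytes, was listed at 0. Dntt, which adds bases at the joints and is shared with B cell precursors, had 17.4, 18.9, 9.02 and 17.0 FPKM in pericytes and at most 0.810 FPKM in SMCs (log2 difference 3.48, SE 0.27, limma q = 0.000172). The T cell transcription factors Tcf7, Lef1, Bcl11b and Gata3 were enriched. Of the recirculation genes, Ccr7 (1172 to 1273 FPKM) was enriched in pericytes, and S1pr1, which endothelial cells also transcribe, had 72.7 to 182.7 FPKM in pericytes and 40.9 to 110.6 FPKM in SMCs and did not pass (log2 difference 0.80, SE 0.39, limma q = 0.219).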

How the data were processed

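Bulk RNA of sorted pericytes and SMCs (4 libraries each) was amplified with SMART-Seq v4 and read as pairs. The study states that differences among replicates may come from individuals and from batches, since sorts were pooled. Bowtie2 and TopHat were used by the authors for alignment to the NCBI Build 37 genome with an Ensembl annotation, and the authors deposited 1 FPKM value per gene and library. The program and strand setting behind the FPKM values are not given in the sources used here.

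Values were taken as log2(FPKM + 1) and compared with limma 3.58.1 in R 4.3.3 over 27414 genes above 0 in at least 1 library, with Benjamini-Hochberg adjustment (q). As in the study, a log2 difference above 2 with q below 0.05 was called enriched. The test was checked on simulated data with normal spread and a fixed difference set in genes above a low level. Genes at 0 in a whole group, as 34 of the tested segments were in SMCs, are not covered by that check. The log scale understates differences of low genes. Segment models came from GENCODE vM1 and sequences from the Build 37 genome. The value of 1 fragment was read from a smooth curve over gene length. The curve was fitted to low FPKM of other genes with 1 model of 250 to 600 bases. In these same genes 97.5% to 98.6% of low values lay within 0.05 of a whole number. The low values of the Trav segments did so within 0.1, apart from 1 value under 1 fragment. For the final estimates the curve was adjusted slightly to the Trav values themselves. Intervals on fragments are not given, since amplified fragments are not independent molecules.

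The members, gene lists and tests were chosen with earlier results of these data known, and some genes of the lists are not reported here. Segments were named when among the 10 highest in pericytes, the 5 highest in SMCs, the 5 largest or smallest enriched differences, the 5 largest or smallest coefficients of variation (pericyte mean of at least 1 FPKM), when at 0 everywhere or not enriched, and when they were Trav1, Trav11, Trav11d or dv segments. Trav6-6, Trav6d-6, Trav7d-4, Trav9-1, Trav7d-5, Trav14d-1, Trav12-3, Trav17 and Trav19 were named after their values were seen. Alternatives were other pseudocounts, filters and scalings, the replicate number as a block, an intensity trend, and each library left out. Python 3.11.15 with numpy 2.4.6, pandas 2.3.3, scipy 1.17.1 and matplotlib 3.10.9 was used for the rest.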

Additional observations from a re-analysis of the deposited data

Results flagged for a closer look

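Within a group of 4 libraries, 1 library stood apart from the other 3 (Dixon's test) in 25 of 140 groups checked, and chance alone gives about 1 in 20. Of these, 12 are segments above 0 in a single SMC library, where any value stands apart. Their values were 0.195 FPKM (Trav9d-1), 0.242 (Trav10d), 0.241 (Trav15d-1-dv6d-1), 0.307 (Trav4-2), 0.459 (Trav13-1), 0.287 (Trav14-2), 0.292 (Trav15-2-dv6-2), 1.009 (Trav6-7-dv9), 0.154 (Trav13-3), 0.320 (Trav13-4-dv7), 0.322 (Trav14-3) and 0.355 FPKM (Trav21-dv12).

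In pericytes the highest library stood apart for Trav4d-2 (2.22 FPKM, replicate 3), Trav18 (2.77 FPKM, replicate 2), Trav15n-1 (0.456 FPKM), Trav4n-4 (0.467 FPKM) and the shorter Trav9n-1 model (0.389 FPKM), all of them segments that did not pass the test. Trav18, Trav15n-1 and Trav4n-4 were above 0 in a single pericyte library, where any value stands apart. The lowest library stood apart for Trav11d (1.15 FPKM, replicate 1) and Trav6d-5 (0.215 FPKM, replicate 2).

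Among the other pathway genes, pericyte replicate 2 was high for Cd3d (446 FPKM), Cd3g (701.4 FPKM) and Cd8a (68.6 FPKM), and pericyte replicate 3 was low for Zbtb16 (0.386 FPKM). In SMCs Trbc2 was low in replicate 3 (8.20 FPKM) and Zap70 was low in replicate 1 (0.445 FPKM).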

How the results depend on the processing

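The number of pericyte-enriched Trav segments was 57 to 68 under all alternatives and 58 to 59 with a library left out, and the number higher in pericytes at a q below 0.05 was 60 to 68 and 63 to 66. In each of these fits 0 segments passed in the other direction. With the replicate number as a block, 58 segments were enriched and 65 passed at a q below 0.05, and among the named genes Trav11d and the longer Trav9n-1 model no longer passed while Cd4 and Rag2 passed. Libraries of the same number had deviations from their group means that correlated at 0.327 on average (0.0794 to 0.474 over 4 pairs), 5 of 8 libraries were closest to their own number, and no source ties the numbers to shared animals. Over 73 named segments and pathway genes and their alternatives, 1104 values kept their direction and side of the threshold, 34 lost it and 6 gained it. Zbtb16, which did not pass the test, reversed to -0.072 with scaling to a common sum, and with a library left out it ranged from -0.14 (without SMC replicate 3) to 0.27, with -0.03 without pericyte replicate 2.

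Per library, 71.2 segments were above 0 in pericytes on average and 65.5 at 1 FPKM or 45.2 with the d and n copies summed, and the SMC mean of 17.8 fell to 3 at 1 FPKM. The effective number was 36.2 (inverse Simpson) or 31.0 (copies summed) in place of 47.1 in pericytes, and 2.85 in place of 13.2 in SMCs with values under 1 FPKM set to 0. Rank agreement between pericyte libraries was 0.864 over segments above 0 in both, 0.895 over those above 0 in at least 1 library (chosen after seeing the data) and 0.903 with copies summed. Between SMC libraries it was 0.511 over segments above 0 in both (3 pairs with at least 6 such segments) and 0.184 with copies summed, and between the groups 0.228 over segments above 0 in both and 0.294 over those above 0 in at least 1. The ratio of summed Trav FPKM, 100.2 in the main setting, was 82.9 with scaling to a common sum and 100.3 with scaling by median ratios. With fragments in place of FPKM (chosen after seeing the data) it was 90.1. With a library left out, the ratio of summed Trav FPKM was 86.1 to 113.7, the effective number 46.4 to 48.1 in pericytes and 11.0 to 14.8 in SMCs, the segments above 0 in pericytes 71.0 to 71.7 and in SMCs 15.7 to 19.7, and the mean rho 0.947 to 0.954, 0.200 to 0.310 and 0.365 to 0.436 within pericytes, within SMCs and between them. The SMC values rest on 21 to 49 fragments per library, which limits every statement on single segments there.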
